A study of Mus musculus with 4 samples.

Results

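The cytosolic ribosomal protein genes were examined in the salivary glands of Nfkbiz-/- and Nfkbiz+/+ mice. Genes were taken from the table of all transcript clusters, the units for which the array gives 1 value, by their symbols (Rpl or Rps with a number and, for some, the ending a, a1, al, x, l or l1, and Rpsa, Rplp0, Rplp1 and Rplp2). A gene with more than 1 cluster was represented by the cluster whose mean over the arrays was highest. This gave 85 genes among 21904 distinct gene symbols and 22206 clusters, 53 of the large subunit and 32 of the small one, and the deposited descriptions call all 85 a ribosomal protein. Of the 85, 9 are paralogs, copies with their own gene (symbols ending in l, l1 or al after the number), and 76 are the canonical genes. Each mouse gave 1 RNA sample, of its parotid, sublingual and submandibular glands combined, for 1 whole-transcript array. There were 2 Nfkbiz-/- mice, M47 and M49, and as controls 2 Nfkbiz+/+ animals, M30 and M55. All were female, 20 weeks old and not cohoused with the other genotype. Nfkbiz-/- mice lack IκB-ζ, an inducible regulator of NF-κB, from the germline, and are studied as a model of Sjögren's syndrome. The mice were housed by genotype, so genotype and cage cannot be told apart. The label of M47 gives the strain ICR, no strain stands in the other labels, and the study's methods describe a mixed background other than ICR. Nfkbiz itself had log2 signals of 6.18 and 5.78 in the Nfkbiz-/- mice M47 and M49, against 5.04 and 7.29 in M30 and M55. No source used here gives the position of its probes, so the genotypes cannot be checked by these signals.

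The ribosome is built from a small subunit, which reads the mRNA, and a large subunit, which joins amino acids, and each holds ribosomal RNA and a fixed set of ribosomal proteins. Most of these proteins are present once in each ribosome, and their genes, though spread over the genome, are usually expressed together. Their mRNAs belong to the TOP mRNAs, which begin with a C and a run of pyrimidines and whose translation is controlled through mTORC1 and LARP1. Salivary acinar cells secrete large amounts of protein and are rich in ribosomes. Here the 85 genes lay on 19 chromosomes, with 14 of them on chromosome 7.

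Nearly all ribosomal protein genes had lower signals in Nfkbiz-/- glands. Of the 85 genes, 48 were called lower in Nfkbiz-/- mice (unadjusted limma p under 0.05 and a difference of at least 1.5-fold), compared with 3.69% of all clusters tested. None was called higher, compared with 2.93% of all clusters. The median log2 fold change, Nfkbiz-/- minus Nfkbiz+/+, was −0.64 over the 85 genes, which is 1.56-fold lower, and −0.02 over all clusters. The fold changes were narrow in range, with quartiles of −0.77 and −0.53. In 81 of the 85 genes, both Nfkbiz-/- mice lay below both Nfkbiz+/+ mice, an order found in 21.5% of all clusters. The 76 canonical genes all had this order. The 4 exceptions were the paralogs Rpl22l1, Rps4l, Rpl39l and Rpl32l. After Benjamini-Hochberg adjustment over all clusters no member passed an adjusted p of 0.05, the lowest being 0.468 with limma, while 62 had an unadjusted p under 0.05. With 2 mice per genotype, an exact two-sided permutation test of a single gene cannot give a p below 0.333. In whole glands, fewer cells rich in these mRNAs and less of these mRNAs per cell cannot be told apart.

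**Figure D1:**
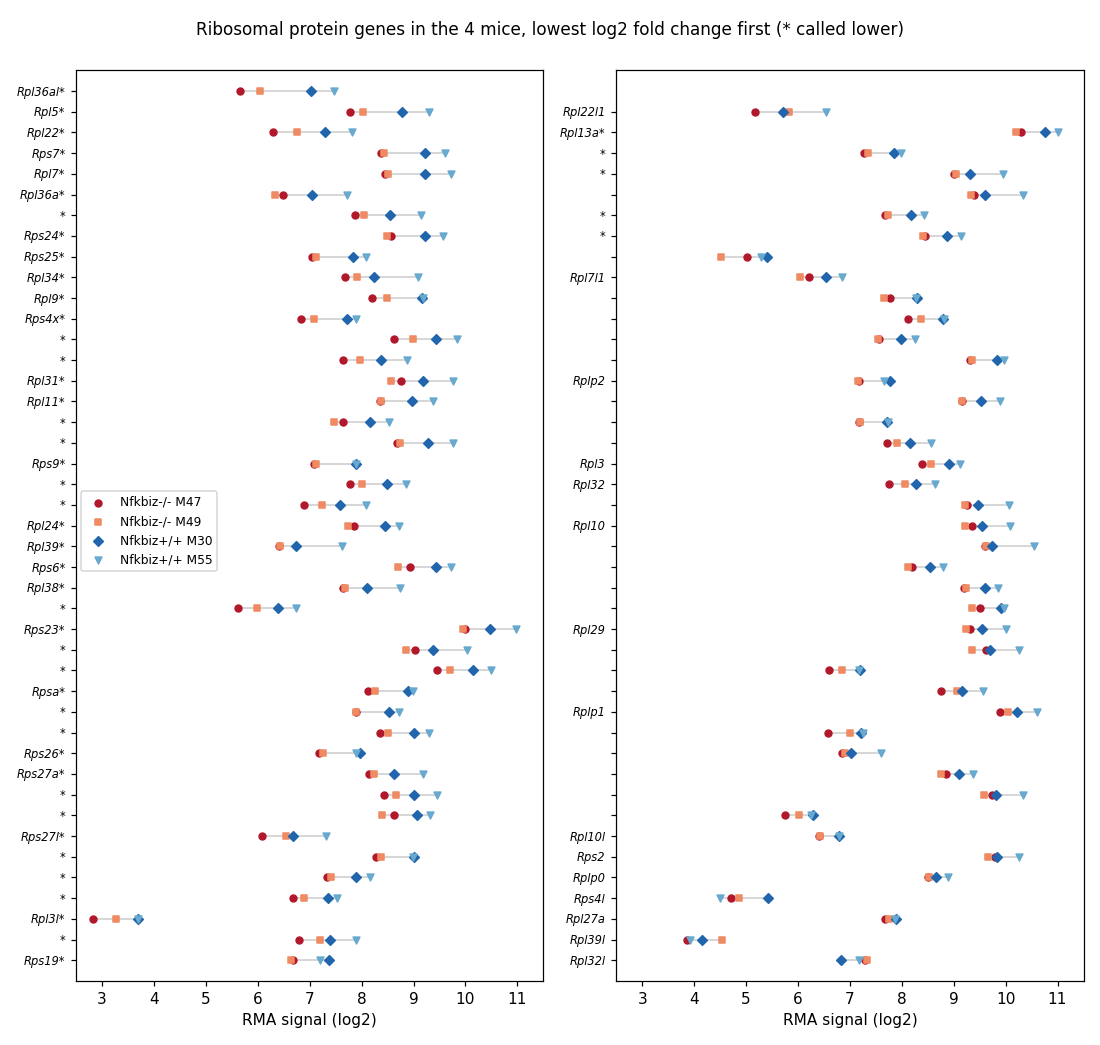
RMA signal (log2, horizontal axis) of each of the 85 ribosomal protein genes in the Nfkbiz-/- mice (M47, M49) and the Nfkbiz+/+ mice (M30, M55), ordered by log2 fold change from the top of the left panel; grey lines join the lowest and highest mouse, asterisks mark the 48 genes called lower, and rows are labelled for genes whose values are described. The red and orange points lie left of the blue ones in 81 genes, and M55 is the rightmost point in 72.

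The shift was present in each pair of an Nfkbiz-/- and an Nfkbiz+/+ mouse, and was larger against M55 than against M30. Over the 85 genes, the median difference was −0.54 for M47 minus M30, −0.45 for M49 minus M30, −0.83 for M47 minus M55 and −0.76 for M49 minus M55. The same medians over all clusters lay between −0.04 and −0.0043. The 2 Nfkbiz-/- mice were close to each other, with a median of M47 minus M49 of −0.05. The 2 Nfkbiz+/+ mice were less so, with a median of M30 minus M55 of −0.34, against 0.01 over all clusters and −0.13 over the 4529 clusters above the upper quartile on every array, and M55 was above M30 in 73 of 85 genes. Among mice, M55 had the highest value of 72 members, M30 of 11 and M49 of 2, and the lowest value was in M47 for 56 members and in M49 for 27. The levels thus ran in the order M47, M49, M30 and M55, and the step between the Nfkbiz+/+ mice was more than that between the Nfkbiz-/- mice.

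The lowest fold change belonged to Rpl36al, an autosomal copy of the X-linked Rpl36a. Rpl36al (chromosome 12) had log2 signals of 5.65 in M47 and 6.04 in M49, against 7.02 in M30 and 7.46 in M55. This is a log2 fold change of −1.40 (SE 0.25; limma, adjusted p = 0.468), or 2.63-fold lower, and the genotypes did not overlap. Rpl5, which carries 5S ribosomal RNA into the large subunit and can bind the p53 regulator Mdm2, had 7.78 in M47 and 8.02 in M49, against 8.77 in M30 and 9.29 in M55, a log2 fold change of −1.13 (SE 0.25). Its partner in that complex, Rpl11, had 8.36 and 8.38 in Nfkbiz-/- mice, against 8.97 and 9.38 in Nfkbiz+/+ mice, with a log2 fold change of −0.81 (SE 0.23). Both genes were called lower, with both Nfkbiz-/- mice below the Nfkbiz+/+ ones.

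Rpl22, an RNA-binding protein that αβ T cells need for their development in mice, had 6.29 in M47 and 6.75 in M49, against 7.29 in M30 and 7.81 in M55, a log2 fold change of −1.03 (SE 0.27). Rps7, a small subunit protein mutated in some families with Diamond-Blackfan anaemia in humans, had 8.38 and 8.44 in Nfkbiz-/- mice, against 9.23 and 9.61 in Nfkbiz+/+ mice, with a log2 fold change of −1.01 (SE 0.22). These 2 genes, Rpl36al and Rpl5 were the 4 members at least 2-fold lower. Rpl7, of the large subunit, followed with 8.45 and 8.50 against 9.22 and 9.72, a log2 fold change of −0.99 (SE 0.24). Rpl36a, on the X chromosome, had 6.48 and 6.33 in Nfkbiz-/- mice, against 7.05 and 7.71 in Nfkbiz+/+ mice, with a log2 fold change of −0.97 (SE 0.26). In these genes too, neither Nfkbiz-/- mouse reached the level of either Nfkbiz+/+ mouse, and all 6 were called lower without any 1 of the 4 mice.

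The DNA around the annotated transcription start is shown for 4 of the members with the lowest fold changes and 4 others, because the pyrimidine run of a TOP mRNA begins at its first base. Sequences are from RefSeq (GRCm38.p6), 5′ to 3′ on the gene's strand, 30 bases with the start in the middle (15 bases on each side). Capitals mark a run of a C followed by at least 4 bases that are each C or T, where its C lies within 2 bases of the annotated start. The first 4 windows, of called members at −1.40 to −1.01, held no such run. The next 4 all held it. They are Rps24 and Rpl13a, both called lower, Rpl27a, the canonical gene nearest to 0, and Rpl32l, which was not lower. Rpl13a is also the member with the highest signal. Among windows not shown, a run was present in Rpl34 (−0.86) and Rpl15 (−0.84). It was absent in Rplp0 (−0.26), Rps2 (−0.32) and Rpl39l (0.17), so the windows shown do not stand for all members.
Rpl36al, chr12:69184053-69184082, minus strand: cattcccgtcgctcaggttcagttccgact
Rpl5, chr5:107900513-107900542, plus strand: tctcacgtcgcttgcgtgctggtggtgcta
Rpl22, chr4:152324421-152324450, plus strand: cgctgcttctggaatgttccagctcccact
Rps7, chr12:28635939-28635968, minus strand: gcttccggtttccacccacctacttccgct
Rps24, chr14:24490663-24490692, plus strand: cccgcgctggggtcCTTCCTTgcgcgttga
Rpl13a, chr7:45128731-45128760, minus strand: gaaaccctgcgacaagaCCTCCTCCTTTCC
Rpl27a, chr7:109519180-109519209, plus strand: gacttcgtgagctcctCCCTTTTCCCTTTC
Rpl32l, chr10:20208424-20208453, plus strand: aaataaaatgaccagCTTCTTCCTTggtgc

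Promoter entries were found for 64 of the 85 genes, with 76 annotated starts (Rpl22 and Rps24 each have a further start, not shown). A run within 2 bases of the start was present at 28.9% of these starts and at 8.96% of the starts of all genes, and one at the first base itself at 17.1% and 2.51%. Anywhere in the 30 bases, the run was found in 57.9% of the members' windows and 36.4% of all windows on the gene's strand, and in 25% and 40.8% on the other strand. Of the 21 members with a run within 2 bases of a start, 10 were called lower, with a median log2 fold change of −0.57. Of the 43 members with an entry but no such run, 26 were called lower, with a median of −0.68. These matches depend on where the start is annotated, which may differ from the start used in the gland.

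Large subunit genes were lower in all but 2 of 53 cases, the paralogs Rpl32l and Rpl39l. Of the 53, 25 were called lower, and the median log2 fold change was −0.61, with a range of −1.40 to 0.31. After Rpl36al, Rpl5, Rpl22, Rpl7 and Rpl36a, the lowest values were those of Rpl34 (−0.86), Rpl9 (−0.85), Rpl15 (−0.84) and Rpl31 (−0.82). Rpl9, which lies near the base of the stalk that binds translation factors, was steady within genotypes in Nfkbiz+/+ mice, with 8.19 and 8.48 in Nfkbiz-/- mice, against 9.17 and 9.19 in Nfkbiz+/+ mice. Rpl34 was less so, with 7.68 and 7.91 in Nfkbiz-/- mice, against 8.24 in M30 and 9.08 in M55, and lost its call without M47 or without M55. The other called large subunit genes were Rpl11, Rpl37a, Rpl24, Rpl39, Rpl38, Rpl36, Rpl26, Rpl12, Rpl35, Rpl23, Rpl19, Rpl30, Rpl23a, Rpl13a, Rpl17 and the paralog Rpl3l, with log2 fold changes of −0.81 to −0.61. Rpl38, which in mice is needed for patterning of the skeleton through translation of Hox mRNAs, was at −0.76 (SE 0.26). Rpl24, whose loss of 1 copy slows protein synthesis in mice, was at −0.77 (SE 0.21).

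All 32 small subunit genes were lower in Nfkbiz-/- mice on average, and 23 were called. Their median log2 fold change was −0.70, with a range of −1.01 to −0.18. After Rps7 came Rps29 (−0.88), Rps24 (−0.88), Rps25 (−0.87), Rps4x (−0.85), Rps12 (−0.82), Rps3a1 (−0.81), Rps3 (−0.80) and Rps9 (−0.79). Rps24, a further Diamond-Blackfan anaemia gene in humans, had 8.56 and 8.48 in Nfkbiz-/- mice, against 9.22 and 9.57 in Nfkbiz+/+ mice. Rps25, which some viral mRNAs need to start translation, had 7.05 and 7.13 against 7.84 and 8.09 in the same order. Rps9 had 7.08 and 7.12 in Nfkbiz-/- mice and 7.89 in each Nfkbiz+/+ mouse. In each of these 3 genes the gap between genotypes was wider than that between mice of either genotype.

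Rps6, the substrate of the S6 kinases downstream of mTORC1, had 8.93 in M47 and 8.70 in M49, against 9.43 in M30 and 9.72 in M55, with a log2 fold change of −0.76 (SE 0.22). Rpsa, also known as the precursor of a laminin receptor, had 8.13 and 8.25 in Nfkbiz-/- mice, against 8.89 and 8.98 in Nfkbiz+/+ mice, with a log2 fold change of −0.74 (SE 0.20). Rps19, the gene most often mutated in Diamond-Blackfan anaemia in humans, had 6.67 and 6.63 against 7.38 and 7.19, with a log2 fold change of −0.64 (SE 0.21). Unlike most members, Rps19 was higher in M30 than in M55. Other called genes of this subunit included Rps23, Rps14, Rps26, Rps27a, the paralog Rps27l, Rps20, Rps16 and Rps18, at −0.75 to −0.59. Rps27a, made as a fusion with ubiquitin, was at −0.71 (SE 0.25), and Rps23, which lies at the decoding centre, at −0.75 (SE 0.24).

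The shares called were 71.9% of small and 47.2% of large subunit genes. Among canonical genes, 22 of 30 small and 23 of 46 large subunit genes were called, with medians of −0.72 and −0.61. The difference between the subunits was not tested, since genes of 1 set of arrays are not replicates. It was absent without M30, where the medians were −0.79 for the small and −0.80 for the large subunit. Without M55 the medians were −0.57 for the small and −0.42 for the large subunit. They were −0.66 and −0.59 without M47, and −0.73 and −0.63 without M49, in the same order. The 2 Nfkbiz+/+ mice also differed more in large subunit genes, with a median of M30 minus M55 of −0.37, against −0.26 in small subunit genes.

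Genes of the stalk, the part of the large subunit that recruits elongation factors, were not called. Rplp0 had 8.50 and 8.53 in Nfkbiz-/- mice, against 8.65 and 8.89 in Nfkbiz+/+ mice, and was at −0.26 (SE 0.21; limma, adjusted p = 0.766). Rplp1 had 9.90 and 10.04 against 10.21 and 10.60, with −0.44 (SE 0.23), and Rplp2 had 7.18 and 7.16 against 7.78 and 7.66, with −0.55 (SE 0.20). Each had the same order of genotypes as the other canonical genes. Rpl27a was nearest to 0 among canonical genes, with 7.68 and 7.76 in Nfkbiz-/- mice, against 7.89 and 7.86 in Nfkbiz+/+ mice and a log2 fold change of −0.16 (SE 0.20). Rps2 followed Rplp0, with 9.80 and 9.66 against 9.84 and 10.26, and a log2 fold change of −0.32 (SE 0.23). In all, 37 members were not called. Of these, 33 were lower by less than 1.5-fold, 14 of them with an unadjusted p under 0.05. A further 2, Rpl22l1 and Rpl21, were lower by at least that much with a p over 0.05, and 2 were higher.

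The paralogs varied most among themselves. Of the 9, 3 were called lower (Rpl36al, Rps27l and Rpl3l), 7 were lower on average, and the median log2 fold change was −0.57, against −0.65 in the 76 canonical genes, of which 45 were called. Rpl32l was the highest member, with 7.29 in M47 and 7.32 in M49, against 6.82 in M30 and 7.17 in M55. It was at 0.31 (SE 0.22; limma, adjusted p = 0.726), whereas its canonical partner Rpl32 had 7.75 and 8.07 against 8.27 and 8.63, at −0.54 (SE 0.23). In neither Nfkbiz-/- mouse was Rpl32l below an Nfkbiz+/+ mouse, the only member of which this was so.

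Rpl39l, a copy of Rpl39 known from male germ cells, had 3.86 and 4.53 in Nfkbiz-/- mice, against 4.15 and 3.91 in Nfkbiz+/+ mice, and a log2 fold change of 0.17 (SE 0.27). The genotypes overlapped, and the sign turned without M49 (−0.17). Rpl39 itself had 6.40 and 6.42 in Nfkbiz-/- mice, against 6.73 in M30 and 7.62 in M55, at −0.76 (SE 0.30). Its call was lost without M47, M49 or M55, with log2 fold changes of −0.75, −0.77 and −0.32. Rps4l had 4.70 and 4.87 in Nfkbiz-/- mice, against 5.42 in M30 and 4.50 in M55, so that they overlapped. The log2 fold change of −0.18 (SE 0.31) turned positive without M30 (0.28), and its canonical partner Rps4x was at −0.85 (SE 0.21). Rps4l was also the member with the widest difference between mice of a genotype, 0.92 for M30 minus M55.

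Rpl22l1, which Rpl22 keeps low in mice, had 5.17 in M47 and 5.82 in M49, against 5.71 in M30 and 6.54 in M55. It was at −0.63 (SE 0.34; limma, adjusted p = 0.625), and M49 lay above M30. Rpl22 itself was called lower in the same mice. Rps27l, a copy of Rps27 that p53 activates, had 6.08 and 6.55 against 6.68 and 7.31, at −0.68 (SE 0.28). Rps27 itself was not analysed here. Rpl10l, a copy of the X-linked Rpl10 known from male germ cells, had 6.40 and 6.42 against 6.79 in each Nfkbiz+/+ mouse, at −0.38 (SE 0.20), and Rpl10 was at −0.53 (SE 0.24). Rpl7l1 was at −0.57 (SE 0.22), and Rpl7 at −0.99. Rpl3l, which takes the place of Rpl3 in heart and skeletal muscle, was the member with the lowest signal, with 2.83 and 3.26 in Nfkbiz-/- mice, against 3.70 and 3.69 in Nfkbiz+/+ mice, where the lower quartiles of the 4 arrays were 3.44 to 3.53. Its log2 fold change was −0.65 (SE 0.23), and that of Rpl3 was −0.54 (SE 0.21). Short gene copies of similar sequence can share probes, so part of a paralog's signal may be that of its partner, which was not tested.

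**Figure D2:**
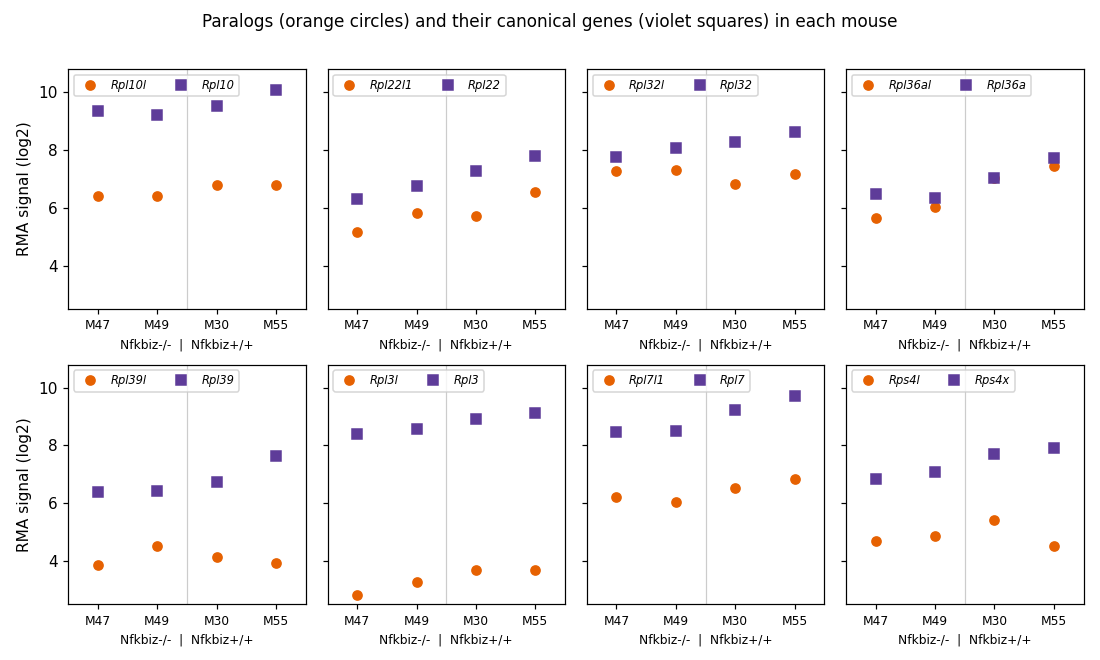
RMA signal (log2, vertical axis) of 8 paralogs (orange circles) and their canonical genes (violet squares) in each mouse, with Nfkbiz-/- mice left of the grey line and Nfkbiz+/+ mice right of it. Canonical genes are lower in both Nfkbiz-/- mice in every panel, while Rpl32l is highest in M47 and M49 and Rpl39l and Rps4l overlap between genotypes.

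The signal of the members ranged widely, but fold changes did not follow it. Mean signals over the 4 arrays ran from 3.37 (Rpl3l) to 10.6 (Rpl13a), with a median of 8.28, and 75 of the 85 genes lay above the upper quartile on every array (6.13 to 6.19). Among clusters in general with such signals, 5.32% were called lower and the median log2 fold change was −0.03. Split at the members' median signal, the 43 bright genes had a median log2 fold change of −0.63 and the 42 dim ones −0.64, with 24 called in each. The dim genes held all 9 paralogs. Among the 76 canonical genes, Pearson's r of signal and log2 fold change across genes was 0.11 and Spearman's rho 0.17, a description only, since the points share the same 4 arrays. The brightest members after Rpl13a (−0.63, SE 0.21) were Rps23 (−0.75) and Rplp1 (−0.44). Rpl13a had 10.30 and 10.20 in Nfkbiz-/- mice, against 10.75 and 11.01 in Nfkbiz+/+ mice. The dimmest after Rpl3l were Rpl39l and Rps4l. Signals of different probe sets do not rank the amounts of the mRNAs.

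**Figure D3:**
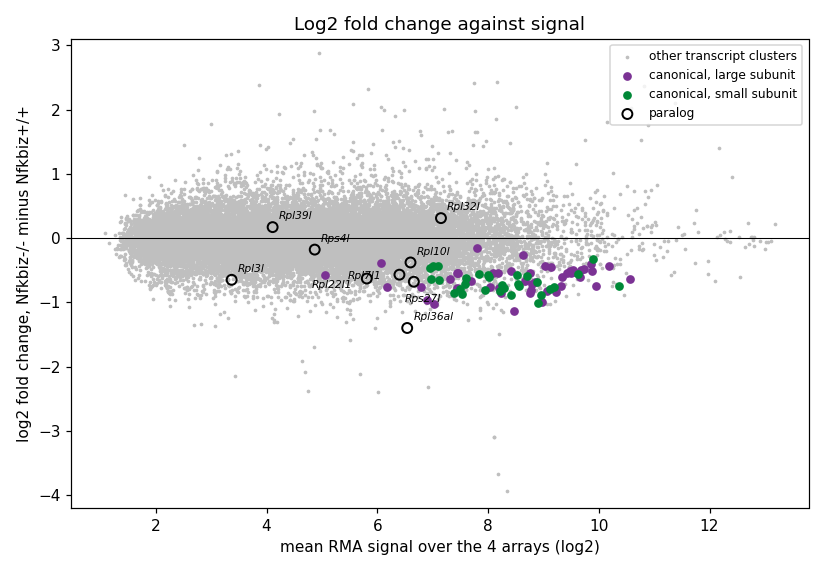
Log2 fold change (Nfkbiz-/- minus Nfkbiz+/+, vertical axis) against the mean RMA signal over the 4 arrays (log2, horizontal axis) for all 22206 clusters, with canonical members in violet (large subunit) and green (small subunit) and paralogs as open circles. The canonical members lie between −1.13 and −0.16 across their range of signals, and Rpl32l and Rpl39l lie above 0.

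For 3 genes the table held a second, dimmer cluster. The second cluster of Rpl31, on chromosome 7, had 5.17 and 5.46 in Nfkbiz-/- mice, against 4.98 and 5.12 in Nfkbiz+/+ mice, and a log2 fold change of 0.26 (SE 0.22), whereas the one used, on chromosome 1 where RefSeq places the gene, was at −0.82 (SE 0.25). The second cluster of Rps26, on chromosome 12, was at −0.27 (SE 0.22), and the one used, on chromosome 10 with the gene, at −0.72 (SE 0.20). For Rpl29 the brighter cluster lies on chromosome 1, while RefSeq places the gene on chromosome 9, so this member may not measure the gene of that name. It was at −0.50 (SE 0.23), and the dimmer cluster, on chromosome 9, at −0.30 (SE 0.23). The other 84 members lay on the chromosome RefSeq gives and overlapped the gene there.

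The number of genes called depended on single mice of both genotypes. Without M55, 25 members were called lower and the median log2 fold change was −0.50. Without M30, 66 were called and the median was −0.79. Leaving out M47 gave 21 calls and a median of −0.61, and leaving out M49 gave 33 and −0.66. The share of all clusters called lower was 4.32% without M55, 7.14% without M30, 2.74% without M47 and 2.42% without M49. At least 82 of the 85 genes were lower in Nfkbiz-/- mice in each of these fits, and none was called higher. The 13 genes called in all 4 were Rpl36al, Rpl5, Rpl22, Rps7, Rpl7, Rpl36a, Rps24, Rps25, Rpl9, Rps4x, Rpl11, Rps9 and Rps14. The study used independent t-tests and did not state whether variances were taken as equal. By a t-test with equal variances, 20 members were called lower, against 1.12% of all clusters, and 13 of these members belong to the small subunit. With unequal variances 8 were called, against 0.473% of all clusters. They included Rpl19, Rpl36al, Rps20, Rps26, Rps4x, Rps9 and Rpsa.

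**Figure D4:**
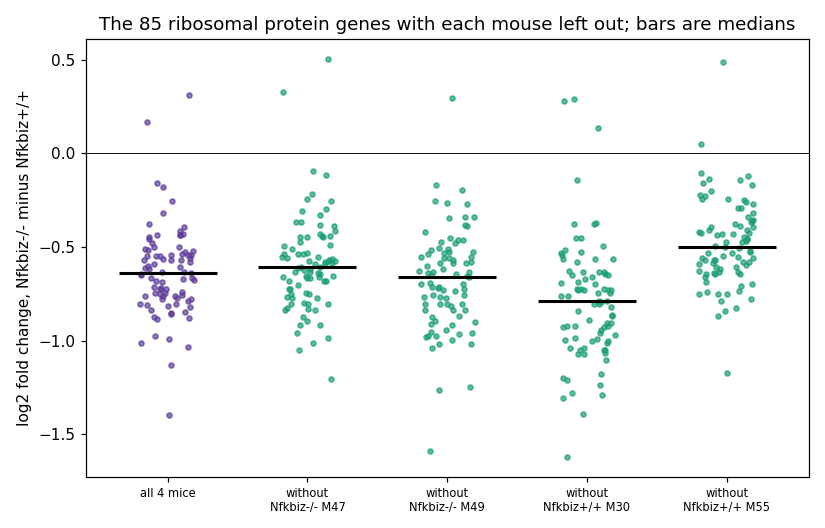
Log2 fold change (Nfkbiz-/- minus Nfkbiz+/+, vertical axis) of the 85 ribosomal protein genes with all 4 mice and with each mouse left out; points are genes and black bars medians. The median lies at −0.64 with all mice, at −0.79 without M30 and at −0.50 without M55.

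Markers of other cell types also differed between the mice. Over all clusters, 3.69% were called lower and 2.93% higher. Of 6 erythroid markers, 3 were called lower, all of them globin genes, and the log2 of the summed signals was 7.99 in M47 and 9.22 in M49, against 12 in M30 and 11.3 in M55. Of 6 fat markers, 3 were called lower, with sums of 6.59 and 6.78 in Nfkbiz-/- mice, against 7.09 in M30 and 9.52 in M55. Skeletal muscle markers were similar, with 3 of 6 called lower and sums of 6.30 and 6.26, against 6.51 in M30 and 8.55 in M55. M55 therefore stood apart in fat and muscle markers, and it also had the highest ribosomal protein signals, whereas M30 had the highest globin signals. Of 8 lymphocyte and plasma cell markers, 2 were called higher, with sums of 10.6 and 8.50 in M47 and M49, against 7.01 and 9.29 in M30 and M55, and Mzb1 lay below the lower quartile in every mouse. Of 4 macrophage markers, 2 were called higher, with sums of 8.12 and 8.02, against 7.10 and 7.75. Of 11 salivary markers, 1 was called higher (Egf, 0.73) and none lower, with sums of 15.6 in both Nfkbiz-/- mice, against 15.6 in M30 and 15.2 in M55. M55 stood apart in Smr3a, with 12.9 in both Nfkbiz-/- mice, against 12.9 in M30 and 10.1 in M55, and in Amy1, with 12.9 in both Nfkbiz-/- mice, against 12.9 in M30 and 10.9 in M55. Without M55 the median of the ribosomal protein genes was −0.50 and 25 were called, against −0.64 and 48 with all mice. The part of these cell types in the result was not tested.

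Genes that work with the ribosomal proteins were split. Among genes that encode subunit proteins under other symbols, Fau (a ubiquitin-like fusion) was at −0.78 (7.96 and 7.87 in Nfkbiz-/- mice, against 8.57 and 8.82 in Nfkbiz+/+ mice) and Rack1, a scaffold on the small subunit, at −0.70. Both were called lower. Among 14 other mRNAs listed as having a pyrimidine tract, mainly translation factors, 4 were called lower and none higher. The share called lower was 28.6%, against 3.69% of all clusters, and the median was −0.52. Both Nfkbiz-/- mice lay below both Nfkbiz+/+ mice in 13 (92.9%, against 21.5% of all clusters). The called genes were Tpt1 (−0.99), Naca (−0.78), Btf3 (−0.65) and Eif3h (−0.63). Tpt1, the translationally controlled tumour protein, had 8.67 and 8.75 in Nfkbiz-/- mice, against 9.63 and 9.76 in Nfkbiz+/+ mice. The exception was the elongation factor Eef2, at −0.04, in which the genotypes overlapped.

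Ribosomal proteins of mitochondria, encoded by a separate set of genes, had a smaller shift. Of 75, 14 were called lower (18.7%, against 3.69% of all clusters) and none higher (2.93% of all clusters). The median was −0.28, and 46 had both Nfkbiz-/- mice lowest (61.3%, against 21.5% of all clusters). Of 57 ribosome assembly genes, 26.3% had both Nfkbiz-/- mice lowest, near the share of all clusters, and the median was −0.06. Of the same 57, 5 were called lower (8.77%) and 3 higher. The lower ones were Dkc1 (−0.98), Npm1 (−0.91), Nop10 (−0.82), Znhit6 (−0.65) and Nhp2 (−0.64). The higher ones were Heatr1 (0.79), Nvl (0.63) and Rrp12 (0.62). Of 11 RNA polymerase I genes, only Polr1a, its largest subunit, was called, at 0.62, and the median was −0.18. Of 13 genes of mTORC1 and LARP1, only Rptor, the mTORC1 subunit raptor, was called, at 0.86, and the median was 0.09. The differences between these lists and the ribosomal protein genes were not tested.

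**Figure D5:**
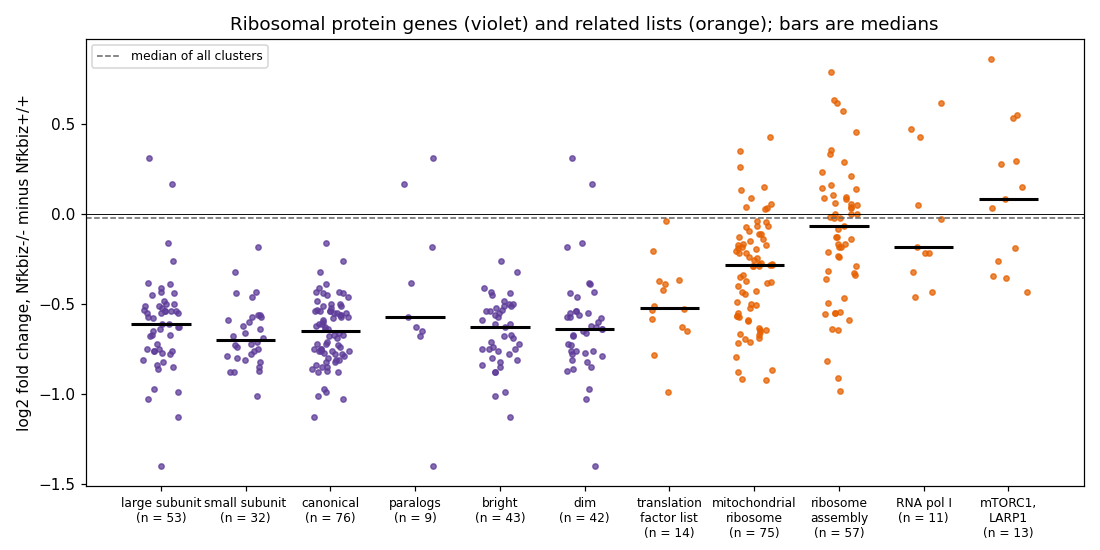
Log2 fold change (Nfkbiz-/- minus Nfkbiz+/+, vertical axis) of the ribosomal protein genes by subunit, paralog status and signal (violet) and of related gene lists (orange); points are genes, black bars medians, and the dashed line the median of all clusters at −0.02. The medians of the ribosomal protein groups lie between −0.70 and −0.57, that of the translation factor list at −0.52 and that of the assembly genes at −0.06.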

How the data were processed

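RNA from the salivary glands of 4 mice was labelled with the WT PLUS kit and hybridized to 1 Affymetrix whole-transcript array per mouse. The deposited values are log2 signals per transcript cluster, which the authors made with Affymetrix Power Tools by RMA, a method that corrects background, equalizes the distributions of the arrays and summarizes probes. Its version, the array annotation and its genome build were not given in the sources used here. The 85 members carry 10 probes each. A second deposited table held the same log2 values at all 22206 clusters. The files also hold the authors' fold changes, p-values and GO and KEGG results, which were not used. Genotypes were taken from the labels of the mice.

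Log2 values were used as deposited. Genotypes were compared over all clusters in limma 3.58.1 (lmFit, eBayes; R 4.3.3; 2 residual and 5.53 prior degrees of freedom), with Benjamini-Hochberg adjustment over all clusters. The procedure was tested on simulated data. Calls used an unadjusted p of 0.05 and a fold change of 1.5. Alternatives were t-tests with equal and unequal variances, an intensity trend, brighter clusters only, a 2-fold threshold, 3 normalizations, the second table, the mean of a gene's clusters, omitting the paralogs, and leaving out each mouse. The lone mouse that then remains in a group was assumed to vary like the other group.

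Named members were all called ones, the 6 highest and 6 lowest, the paralogs and their partners, the stalk genes, Rpsa, Rpl5, Rpl11, Rps6, Rps19, and the 3 brightest, dimmest and most variable within a genotype. Genes of the related lists were named where called, and those of the marker lists mostly only counted. Rpl21, Eef2, Mzb1, Smr3a and Amy1 were named after their values were seen. The members, lists and rule were chosen with earlier results of these data known. Some genes are counted but not reported here by name. A list of snoRNA host genes had none in the table by symbol. Arrays carry no read depth, and their number limits the precision. The labels do not say whether mice were littermates. All p-values rest on the spread between these mice, and limma takes a gene's spread partly from all clusters.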

Additional observations from a re-analysis of the deposited data

How the results depend on the processing

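The count of 48 members called lower (3.69% of all clusters) was 20 by t-test with equal variances (1.12%) and 8 with unequal variances (0.473%). At a 2-fold threshold it was 4, and the share of all clusters at that threshold is not given here. Of the clusters tested, 3.31% to 4.67% were called lower with an intensity trend, brighter clusters only, the 3 normalizations or the second table. With these, the mean of a gene's clusters (3.62%) or without the paralogs, 44 to 49 members were called lower. Leaving out 1 mouse gave 21 to 66 (25 without M55), and the cause was not tested. No member was called higher under any of these settings, and 83 were lower in Nfkbiz-/- mice under each normalization. The median over all members was −0.61 to −0.65 under the normalizations, the second table, the mean of clusters and without the paralogs, and −0.79 to −0.50 without 1 mouse. Without 1 mouse, the median was −0.80 to −0.42 for large and −0.79 to −0.57 for small subunit genes, −0.64 to −0.37 for paralogs (−0.38 without M55), −0.80 to −0.51 for canonical, −0.84 to −0.48 for bright and −0.74 to −0.53 for dim genes. The sign turned for Rpl39l without M49 (−0.17) and for Rps4l without M30 (0.28), and for no other named gene. No paired analysis was possible because the labels give no numbers shared between genotypes. In the limma and t-test fits of all 4 mice, the lowest adjusted p of a member was 0.29 (limma, brighter clusters only).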
